A study of Homo sapiens with 4 samples.

Results

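The genes described here encode the granule proteins, surface markers, receptors and lineage transcription factors that promyelocytic or maturing myeloid cells express. They numbered 47 of 20176 protein-coding genes and were taken from a list of names, drawn up by known function and with earlier results of these data in view, while no peak value enters the rule itself. A peak belonged to a gene when its largest overlap on the same strand lay over that gene's exons in the hg19 build. The members held 7 of the 8070 listed N7-methylguanosine (m7G) peaks of HL60 cells and 12 of the 8122 listed peaks of HL60/MX2 cells.

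HL60 (HL-60 in the labels) is a human acute myeloid leukemia line whose cells resemble promyelocytes, and HL60/MX2 is a line derived from it by selection for drug resistance. The labels give HL60 as wild type and HL60/MX2 as drug-resistant cells, both grown in the same medium without any treatment, so that each condition was represented by a single cell line. Poly(A) mRNA was enzymatically decapped, fragmented and precipitated with an m7G antibody (m7G-MeRIP-seq), with 1 precipitated and 1 input library per line. The deposited values were 1 peak list per line, each row holding a position, a strand and a score; the read counts and the depth behind a peak were unknown, and no replicate existed. The differences below therefore compare 2 lists and carry no test. The intervals are exact (Clopper-Pearson) 95% intervals that cover counting error only. A gene without a peak could not be told apart from a gene that was not expressed or was covered too thinly, since the input libraries were not analysed here, and for the same reason the labelled cell type could not be checked against marker levels.

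m7G is best known as the cap at the 5′ end of mRNAs, and it also occurs inside tRNAs, rRNAs and mRNAs, where the METTL1/WDR4 methyltransferase places it in part of the sites. Myeloid cells build their granules in stages. Azurophil granules with myeloperoxidase and serine proteases form in promyelocytes, followed by specific and gelatinase granules, while integrins, Fc receptors and the NADPH oxidase serve adhesion, uptake of particles and the oxidative burst of mature cells.

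The sequences that carry the coding peaks are given first, each 5′ to 3′ on the transcript strand in hg19. The opening pair are the coding bases of the highest-scoring member peak of each list. The next is the peak in ITGAM, another integrin among the members, which also covers the 5′ part of an exon. Capitals mark a match to CUGKR (K is G or U, R is A or G), a motif searched on the strand of the peak, with T written for U.
CTSG, HL60, chr14:25045375-25045391, minus strand: caCTGGGgctgaggcag
ITGAX, HL60/MX2, chr16:31371631-31371703, plus strand: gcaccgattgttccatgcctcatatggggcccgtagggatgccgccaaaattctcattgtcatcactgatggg
ITGAM, HL60/MX2, chr16:31276716-31276797, plus strand: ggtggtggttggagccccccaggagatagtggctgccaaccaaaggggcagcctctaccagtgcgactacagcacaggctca

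The following were the coding bases of 3 HL60/MX2 peaks that covered the translation start of the gene's longest coding transcript. They are shown from the start codon onward, with CUGKR matches in capitals.
CYBA, chr16:88717364-88717421, minus strand: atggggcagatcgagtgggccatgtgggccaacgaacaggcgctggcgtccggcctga
TYROBP, chr19:36399070-36399130, minus strand: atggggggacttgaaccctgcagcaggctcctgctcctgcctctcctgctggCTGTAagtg
MYB, chr6:135502652-135502674, plus strand: atggcccgaagaccccggcacag

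A pair of member peaks held bases that recur in a related gene, and reads of the recurring stretch could have come from another copy. In the RNASE3 peak of HL60, the first 140 coding bases matched those of RNASE2 at 125 positions (89.3%), and the 15 positions that differ are in capitals. The run from chr17:56274552-56274592 inside the 319-bp EPX peak, a small part of it, recurred without a difference over 41 bases in MPO.
RNASE3, chr14:21359846-21359985, plus strand: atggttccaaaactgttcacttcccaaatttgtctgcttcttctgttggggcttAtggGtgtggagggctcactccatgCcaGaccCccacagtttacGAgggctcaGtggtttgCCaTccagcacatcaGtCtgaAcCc
RNASE2, chr14:21423931-21424070, plus strand: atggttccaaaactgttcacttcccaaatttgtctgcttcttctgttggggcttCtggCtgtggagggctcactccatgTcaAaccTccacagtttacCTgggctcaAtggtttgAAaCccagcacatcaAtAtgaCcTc
EPX and MPO, shared run: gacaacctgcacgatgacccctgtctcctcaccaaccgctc

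In HL60, 6 of the 47 members (12.8%, 95% interval 4.83 to 25.7%) held a peak, against 26.4% of all protein-coding genes. In HL60/MX2, 12 members (25.5%, 13.9 to 40.3%) did, against 28.6% of all genes. The total exon length per gene was smaller in the members, with a median of 2583 bp against 4386 bp over all genes. The share of genes with a peak differed widely between classes of this total exon length. Each member was therefore set beside the other genes of its own class of exon length and exon number, 197 to 201 genes in each class. Summed over the members, the shares of these like genes came to a count of 11.3 for HL60 and 12.0 for HL60/MX2. The HL60 count of 6 was below the count from like genes, which still lay within its counting interval, while the HL60/MX2 count equalled it.

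Only CD36 held a peak in both lines (2.13% of members, 0.0539 to 11.3%), against 12.0% of all genes and a count of 4.89 from like genes. In all, 17 members (36.2%, 22.7 to 51.5%) held a peak in either list, where 43.0% of all genes did and the like genes gave 18.4. A peak in HL60 alone occurred in 5 members (10.6%, against 14.5% of all genes). A peak in HL60/MX2 alone occurred in 11 members (23.4%, against 16.6%). No member peak overlapped a member peak of the other line, and 0 of 19, taken as a limit of 3 peaks and not as an exact interval, allows a share of up to 15.8%, which the 6.16% of HL60 and 6.13% of HL60/MX2 peaks over protein-coding exons that were shared did not exceed.

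**Figure D1:**
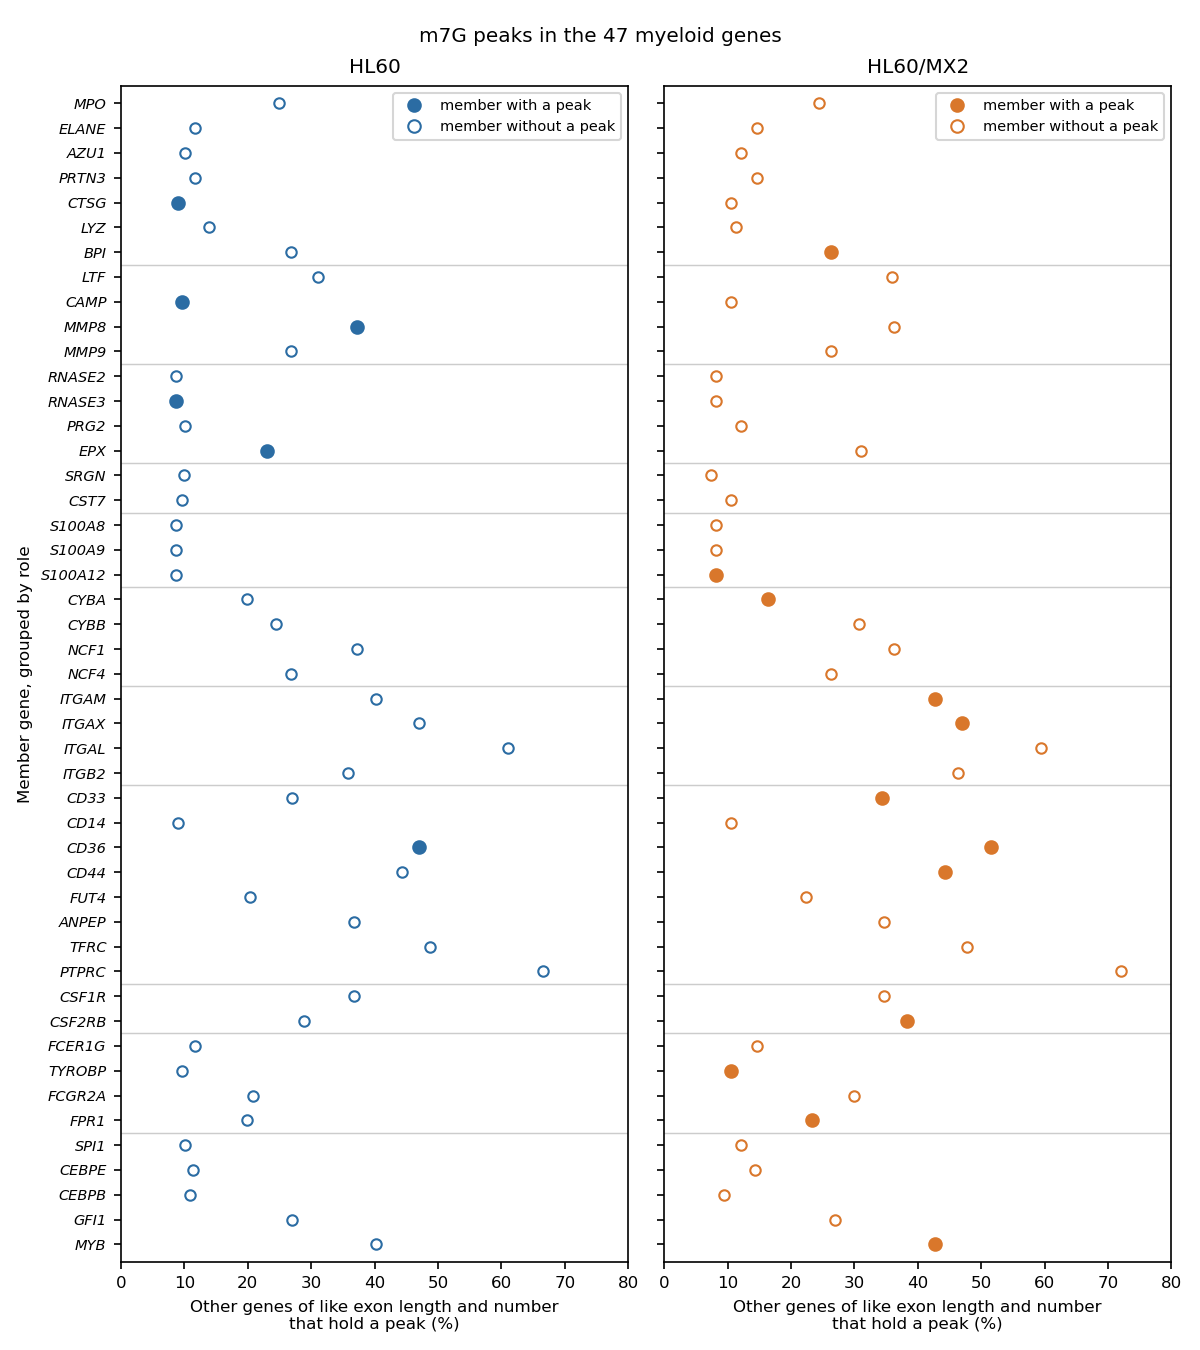
Each row is 1 of the 47 member genes, grouped by role, and the x axis is the percentage of other genes of like exon length and number that hold a peak, in HL60 (left) and HL60/MX2 (right). Filled points are members with a peak (6 and 12) and open points members without one. PTPRC, at 66.5% and 72.0%, had the highest value and held no peak.

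The position of the members along this scale is drawn in the plot of like-gene percentages. The lowest class value was 8.63% in HL60 and 7.46% in HL60/MX2, the medians over members were 20.9% and 24.4%, and the highest values belonged to PTPRC. PTPRC (CD45), the phosphatase found on all white blood cells, had a peak in neither line although 66.5% of its like genes in HL60 and 72.0% in HL60/MX2 had one. ITGAL, the alpha chain of LFA-1, also had none, at 61.0% and 59.5%. At the other end S100A12 held a peak in HL60/MX2 in a class where 8.12% of genes did.

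By role, the members with a peak were counted apart in the 2 lists. Of the 17 genes of granule contents and packing, 5 (29.4%, 10.3 to 56.0%) held an HL60 peak, while 1 (5.88%, 0.149 to 28.7%) held an HL60/MX2 peak. The like genes gave 2.82 and 3.0. Of the 30 other members the counts ran the other way, with 1 (3.33%, 0.0844 to 17.2%) in HL60 and 11 (36.7%, 19.9 to 56.1%) in HL60/MX2, beside 8.45 and 9.04 from like genes. Of these 4 intervals, only that of the other members in HL60 left out the count from like genes. This division into 2 groups was made after the values were seen, it compares 1 library per line, and the difference was not tested. Among 99 other myeloid genes the direction differed between roles. The integrins, the Fc, Toll and chemoattractant receptors and the NADPH oxidase genes ran opposite to the members of those roles. Of the granule genes there, 4 of 24 held a peak in HL60 against 3 in HL60/MX2 (6.12 and 6.77 from like genes). Of the 8 integrins of that list, 2 held a peak in HL60 against 1 in HL60/MX2 (3.40 and 3.64 from like genes). Its 19 Fc, Toll and chemoattractant receptors had 5 against 2 (4.08 and 4.37). Its 4 NADPH oxidase genes had 1 against 0 (1.12 and 1.25). Its 15 surface markers had 3 against 6 (4.58 and 4.73) and its 20 transcription factors 3 against 6 (4.71 and 5.16). Its 9 cytokine receptors had 2 against 4 (2.71 and 3.0). Among the 5 granule gene peaks of HL60, 3 were shorter than 50 bp, so that 2 were left when shorter peaks were dropped. The granule genes also had a smaller total exon length, with a median of 1724 bp per gene against 5018 bp in the other members.

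**Figure D2:**
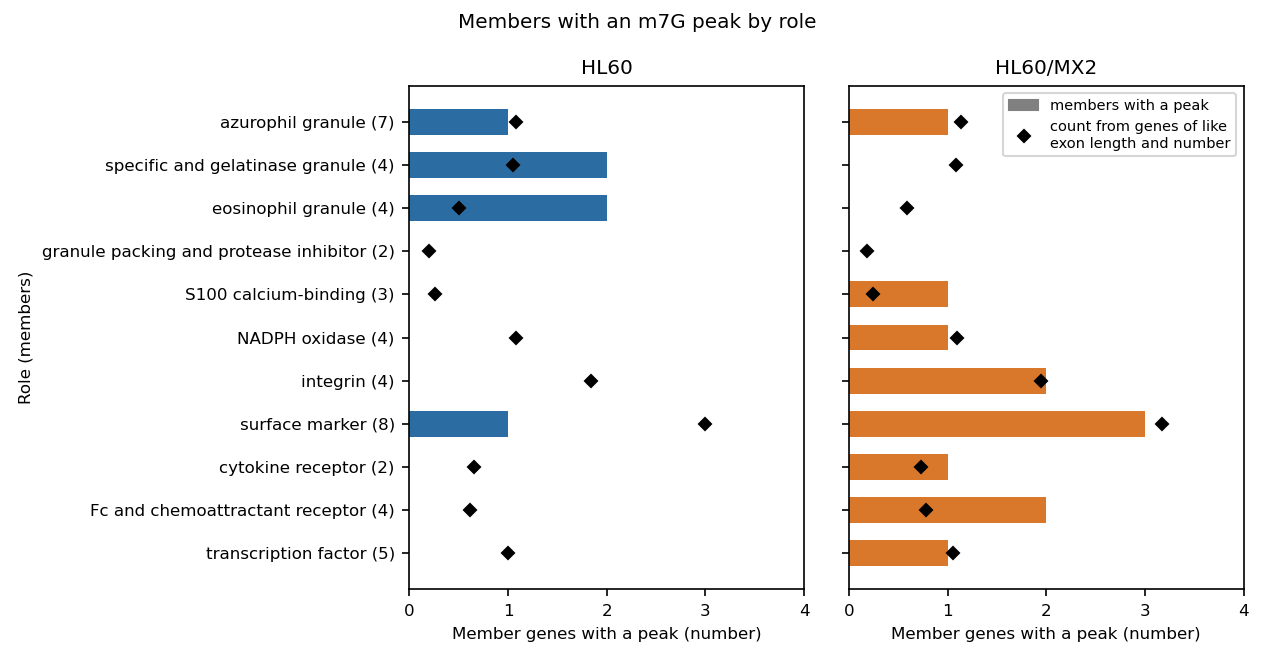
Bars give the number of member genes with an m7G peak in each role, for HL60 (left) and HL60/MX2 (right), with the members of each role in parentheses. Diamonds give the count from genes of like exon length and number. HL60 bars appear in 3 granule roles and in surface markers, and HL60/MX2 bars in 1 granule role and 7 other roles.

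Among the 7 azurophil granule genes, CTSG alone had a peak in HL60 and BPI alone in HL60/MX2, against 1.08 and 1.14 from like genes. CTSG, which encodes the serine protease cathepsin G, carried the highest-scoring member peak of HL60, at 728.97, above 96.0% of the scores in that list. The peak was 17 bp long and formed the last 17 bases of the 82-base exon 1, within 100 nt of the start codon. A CUGKR match occurred in it, as in 9.30% of the 129 listed HL60 peaks of like length. BPI, which encodes a protein that binds endotoxin and kills Gram-negative bacteria, had an 89-bp peak at chr20:36946051-36946139 with a score of 92.8, higher than 14.8% of its list. It covered the whole of exon 1 of a shorter coding transcript (ENST00000417318.3), with the start codon and 9 coding bases of that transcript. It did not touch the longest one. MPO (myeloperoxidase), ELANE (neutrophil elastase), AZU1 (azurocidin), PRTN3 (proteinase 3) and LYZ (lysozyme) had no peak. ELANE, AZU1 and PRTN3 are neighbours on chromosome 19, and the nearest listed peak of another gene lay 143630 to 169547 bp from them in HL60 and 15358 to 39587 bp in HL60/MX2. For these 3 genes 10.1 to 11.6% of like genes in HL60 held a peak, so that their lack of one was the more frequent outcome in their class.

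Of the 4 genes of specific and gelatinase granules, CAMP and MMP8 had a peak in HL60 (1.05 from like genes) and none did in HL60/MX2 (1.09 from like genes). CAMP, the precursor of the antimicrobial peptide LL37, had a 37-bp peak at chr3:48266128-48266164 with a score of 191.03 (percentile 49.2). It formed the end of exon 3 of 4, all of it coding. MMP8, the neutrophil collagenase, had a peak of only 4 bp at chr11:102593160-102593163, the last bases of exon 2 of 10, with a score of 334.94 (percentile 74.9). LTF (lactoferrin) and MMP9 (gelatinase B) had no peak in either line, where 36.0% and 26.3% of like genes in HL60/MX2 did.

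RNASE3 and EPX, both eosinophil granule genes, had a peak in HL60, against a count of 0.503 from like genes. RNASE3, eosinophil cationic protein, had a 145-bp peak at chr14:21359841-21359985 that began with the first base of exon 2 and held the start codon, with a score of 270.78 (percentile 65.3). Of the 31-base stretches touching that peak, 33.7% recurred elsewhere in the genome, among them an 89-bp run that is also in RNASE2. Within this run some stretches occurred 3 times in the genome. EPX, the eosinophil peroxidase, had a 319-bp peak at chr17:56274300-56274618, exactly exon 7 of 13, with a score of 336.28 (percentile 75.0). There 3.15% of the 31-base stretches recurred, all in the MPO run printed above. RNASE2 (eosinophil-derived neurotoxin) and PRG2 (major basic protein) had no peak, and no eosinophil gene had one in HL60/MX2 (0.593 from like genes). In RNASE2 32.0% of the 31-base exon stretches recurred in the genome. SRGN, the proteoglycan that packs granule proteins, and CST7, an inhibitor of granule proteases, had none in either line. For this pair the like genes gave 0.195 in HL60 and 0.180 in HL60/MX2.

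Outside the granule contents the peaks came from HL60/MX2, with the exception of CD36. S100A12, a calcium-binding protein that neutrophils release, had a 132-bp peak at chr1:153346312-153346443 with a score of 540.63 (percentile 79.4), the 5′ part of its last exon up to within 100 nt of the stop codon. S100A8 and S100A9, which form calprotectin, had no peak. Thus 1 of the 3 S100 genes held a peak in HL60/MX2 (0.244 from like genes) and 0 in HL60 (0.259). CYBA, the small membrane chain of the NADPH oxidase, had a 214-bp peak at chr16:88717235-88717448 with a score of 479.71 (percentile 74.6). Only 85 of its bases lay over CYBA exons and 129 lay in the intron that follows exon 1. CYBB, NCF1 and NCF4, the other oxidase members of the list, had none. The count of 1 of 4 oxidase genes in HL60/MX2 was close to the 1.10 from like genes. In HL60 it was 0, beside 1.08. NCF1 has near-identical pseudogenes, and 88.0% of the 31-base stretches of its exons recurred in the genome, so reads of this gene may not have been placed.

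ITGAX and ITGAM encode CD11c and CD11b, the alpha chains of a pair of complement-binding integrins, and each had 1 peak in HL60/MX2. The ITGAX peak was 73 bp long with a score of 1661.01, higher than 98.2% of its list and the highest among the member peaks of HL60/MX2. The ITGAM peak was 82 bp long with a score of 512.76 (percentile 77.5). They lay in the same way, each starting with the first base of an internal coding exon, exon 8 of 31 in ITGAX and exon 3 of 30 in ITGAM, and neither held CUGKR or GGAAR. ITGAL and ITGB2, the latter the shared beta chain of these integrins, had no peak, so that the count of 2 was close to the 1.95 from like genes. In HL60, where like genes gave 1.84, no integrin of the list had a peak.

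Of the 8 surface markers, CD36 had a peak in HL60, against 2.99 from like genes, and CD33, CD36 and CD44 had one in HL60/MX2, against 3.17. CD36, the scavenger receptor that takes up fatty acids and oxidised lipoproteins, was the only member with more than 1 peak. Its HL60 peaks were at chr7:79998891-79999097 (207 bp, score 124.76, percentile 30.5) and chr7:80175507-80175514 (8 bp, score 242.54, percentile 60.0). Both lay in noncoding 5′ exons of 1 transcript, ENST00000435819.5, exon 1 and exon 4. The HL60/MX2 peak was at chr7:80275678-80275801 (124 bp) in exon 1 of another transcript, ENST00000413265.5, with a score of 1344.76 (percentile 97.0). From the first to the second peak the gap was 176409 bp, and from the second to the third 100163 bp. CD36 was therefore counted in both lists although the lines marked different exons, upstream of the coding region of the transcripts named, and the longest coding transcript held none of them. The 8-bp peak was also in repeated sequence, since 78.9% of the 31-base stretches touching it recurred, in runs with up to 70 copies.

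CD33, an inhibitory lectin receptor of myeloid cells and an antibody target in leukemia, had the lowest-scoring member peak of HL60/MX2, at chr19:51739324-51739536 (213 bp, score 83.7, percentile 11.9). It lay in the 3′ untranslated part of a shorter transcript, ENST00000436584.6. Of the 31-base stretches touching it, 32.5% recurred, in runs with up to 50604 copies. CD44, the hyaluronan receptor, had a 335-bp peak at chr11:35251903-35252237 in its 3′ untranslated region, with a score of 503.57 (percentile 76.7). CD14, FUT4 (the fucosyltransferase that makes CD15), ANPEP (CD13), TFRC (the transferrin receptor) and PTPRC had no peak in either line. Of these, TFRC had the largest total exon length of all members, 17376 bp. Among its like genes, 48.8% in HL60 and 47.8% in HL60/MX2 held a peak.

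Of the 2 cytokine receptors, CSF2RB held a peak in HL60/MX2 (0.730 from like genes), as did TYROBP and FPR1 of the 4 Fc and chemoattractant receptor genes (0.784), and in HL60 none of the 6 held one (0.655 and 0.619). CSF2RB, the common beta chain of the GM-CSF, IL-3 and IL-5 receptors, had the longest member peak, 371 bp at chr22:37334871-37335241, in the 3′ untranslated region of exon 14 of 14 of its canonical transcript, with a score of 108.69 (percentile 19.7). CSF1R, the M-CSF receptor, had none. TYROBP (DAP12), a signalling adaptor, had a 142-bp peak at chr19:36399070-36399211 that covered the start codon, with a score of 157.87 (percentile 31.6). Over its exons lay 128 of the 142 bases. FPR1, the receptor for formylated bacterial peptides, had the shortest member peak, 2 bp at chr19:52253909-52253910, the end of a noncoding exon 1 of ENST00000600815.2, with a score of 222.79 (percentile 44.4). FCER1G and FCGR2A, the gamma chain and an activating receptor for antibodies, had no peak. In FCGR2A 46.5% of the 31-base exon stretches recurred in the genome.

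Among the 5 transcription factors only MYB, which keeps progenitors dividing, had a peak, in HL60/MX2. It was 222 bp long at chr6:135502453-135502674 and ran to the end of exon 1, with 23 coding bases, and scored 163.74 (percentile 32.9). SPI1 (PU.1), CEBPE, CEBPB and GFI1, regulators of the monocytic and granulocytic programmes, had no peak in either line. The like genes gave 0.995 in HL60 and 1.06 in HL60/MX2 for these 5 genes.

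**Figure D3:**
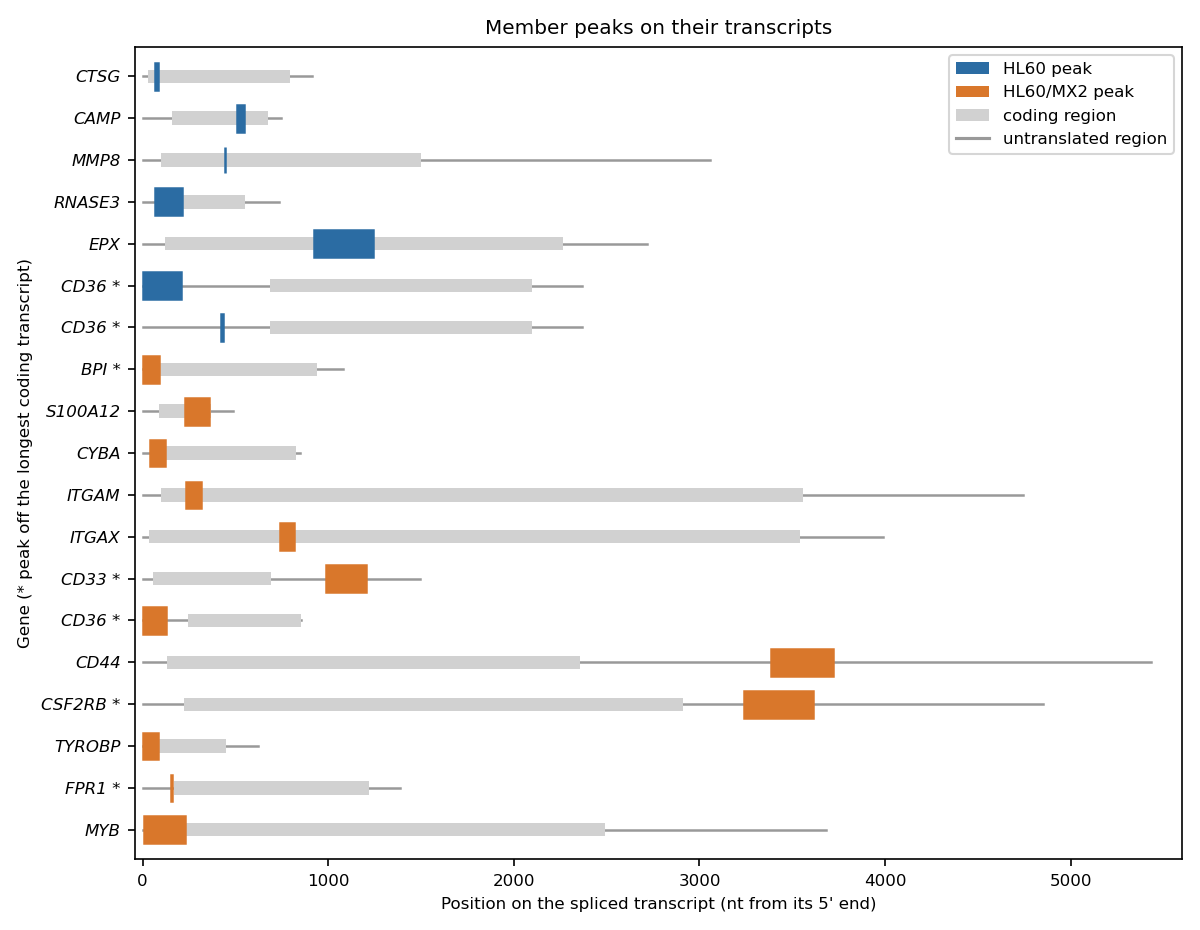
Each row is 1 of the 19 member peaks on 1 spliced transcript that it overlaps, with the position in nt from the transcript's 5′ end on the x axis. Boxes in colour are the peaks, wide grey boxes the coding region and thin lines the untranslated regions, and an asterisk marks the 7 peaks that the longest coding transcript does not contain.

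Along the mRNAs, 12 of the 19 member peaks overlapped the gene's longest coding transcript and could be classed, as shown in the plot of peaks on their transcripts. Each took the class that it overlapped most, and could extend beyond it. Of these, 5 were classed to the coding region, 5 to the 100 nt on either side of the start codon, 1 to the stop codon and 1 to the 3′ untranslated region. Peaks in the 5′ untranslated region or near the start codon made up 2 of 5 in HL60 (40.0%, 5.27 to 85.3%) and 3 of 7 in HL60/MX2 (42.9%, 9.90 to 81.6%). Among all classed peaks of the lists these shares were 10.4% and 17.5%. The coding region held 3 of 5 (60.0%, 14.7 to 94.7%) and 2 of 7 (28.6%, 3.67 to 71.0%), where the lists had 63.9% and 59.8%. With so few peaks the intervals are wide, and the HL60 interval contains the list's share in both classes. In HL60/MX2 the list's share also lay within the interval of the members in both classes.

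The longest coding transcript lacked 7 peaks, of CD36, BPI, CD33, CSF2RB and FPR1. They were 2 of the 7 HL60 peaks and 5 of the 12 in HL60/MX2, where 15.2% and 15.7% of all listed peaks over protein-coding exons did so. The canonical transcript of the annotation lacked 6 of them, CSF2RB being the exception, and each of the 7 overlapped some other coding transcript. A start or an end at an exon boundary was found in 15 of the 19 peaks, 7 of 7 in HL60 and 8 of 12 in HL60/MX2. Such a boundary was also the rule in the lists, in 70.5% of HL60 and 71.5% of HL60/MX2 peaks. A whole exon was covered by 6 of the 19 member peaks, where 29.7% of HL60 and 29.8% of HL60/MX2 peaks over protein-coding exons did so.

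**Figure D4:**
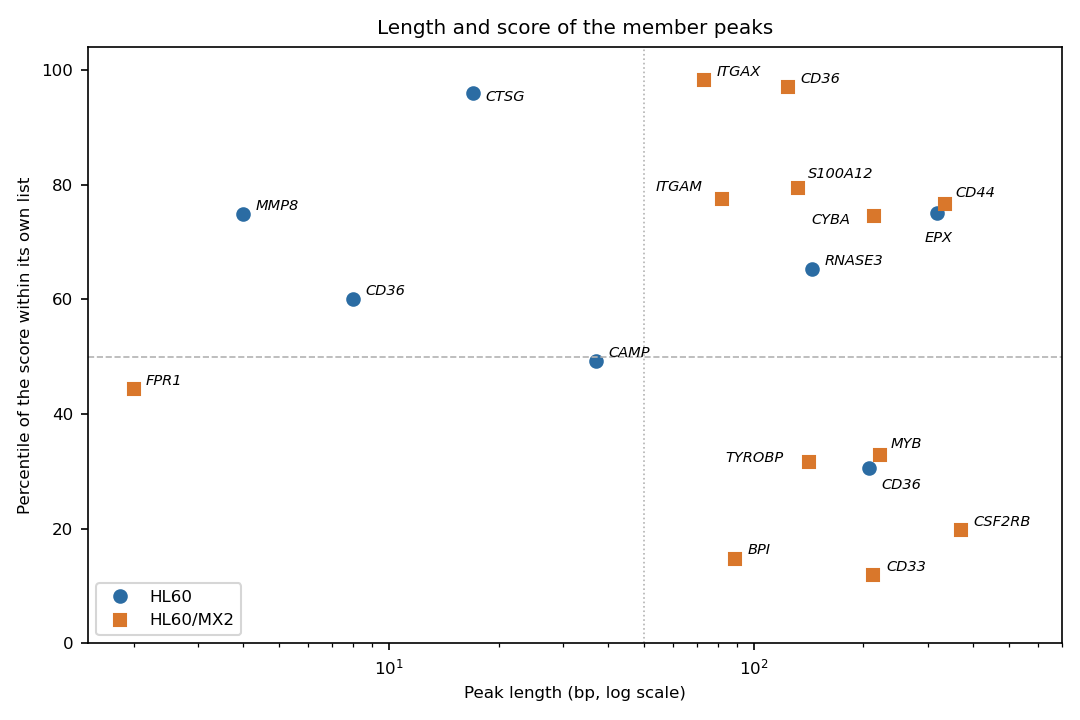
Points are the 19 member peaks, with peak length in bp on a log x axis and the percentile of the score within its own list on the y axis, circles for HL60 and squares for HL60/MX2. The dashed line is the 50th percentile and the dotted line 50 bp, below which 4 HL60 peaks and 1 HL60/MX2 peak lie.

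Length and score are drawn together in the plot of score percentile by peak length. Scores were compared within a list only, because their scale is not stated. The HL60 member peaks ranged from 4 to 319 bp with a median of 37 bp, against 128 bp over all HL60 peaks in protein-coding exons. Those of HL60/MX2 ranged from 2 to 371 bp with a median of 137 bp, against 132 bp. Peaks under 20 bp were 3 of 7 in HL60 (42.9%, 9.90 to 81.6%) and 1 of 12 in HL60/MX2 (8.33%, 0.211 to 38.5%), where the lists had 6.19% and 5.33%. The short peaks of CTSG, MMP8 and FPR1 each ended where an exon ends.

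The median score of the HL60 member peaks was 271, against 197 in the list, and 5 of 7 exceeded the list's median. In HL60/MX2 the median was 351 against 259.7, with 6 of 12 above. Expressed as percentiles the medians were 65.3 and 59.5. The peaks of ITGAX, CD36 and CTSG were the 3 that lay above the 95th percentile. BPI, CD33 and CSF2RB lay below the 20th.

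CUGKR and GGAAR are motifs that the study reported from its own m7G peaks, so they were not independent of these lists. The motif CUGKR was found in 3 of the 6 HL60 member peaks long enough to be searched (CTSG, EPX and the 207-bp peak of CD36) and in 6 of the 11 in HL60/MX2. The listed peaks of like length gave 2.48 and 7.21. GGAAR was found in 1 and in 5, where like-length peaks gave 2.02 and 5.41. These counts lay within 2 of those in listed peaks of like length.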

How the data were processed

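Precipitated m7G-MeRIP-seq RNA of HL60 and HL60/MX2 cells was represented by 1 deposited peak list per line. Per the labels and the study's methods, the authors trimmed reads with cutadapt 1.9.3, aligned them to hg19 with HISAT2 2.0.4 (STAR is also named, for input libraries), called peaks with MACS, whose version is not given in the sources used here, and kept peaks over exons of protein-coding genes. Column 5 of the deposited lists was a score of unstated scale, and depth was unknown.

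Peaks were assigned to genes by the largest same-strand exon overlap with 20176 protein-coding genes (GENCODE release 44 on hg19). On the longest coding transcript each peak took the class with the largest overlap, with a window of 100 nt to either side of each start or stop codon. Like genes were those of the same class among 20 bins of exon length and 5 of exon number in each. Peaks were shared if they overlapped by 1 bp. Every 31-base stretch was searched genome-wide on both strands. Motifs were searched on the peak's strand in peaks of at least 5 nt, against listed peaks within 10% of their length. The shortest peaks had a wider tolerance than 10%. Every member was accounted for, and each member with a peak was named with its values. Sequences were printed for the highest-scoring coding peaks and for peaks shared with a gene copy, and those of ITGAM, CYBA, TYROBP and MYB were added after their values were seen. The members and lists were chosen with earlier results of these data known. No test was possible with 1 library per line. The computations used Python 3.11.15, numpy 2.4.6, scipy 1.17.1, numba 0.67.0 and matplotlib 3.10.9, and the scripts were tested on simulated data.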

Additional observations from a re-analysis of the deposited data

How the results depend on the processing

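Of 46 values recomputed under other settings, 42 stayed within 1.5 times the reported count or within the counting interval, and 4 moved. With peaks of at least 50 bp, 3 members (3 peaks) remained in HL60, in place of 6 members (7 peaks), because the peaks of CTSG, CAMP, MMP8 and the shorter one of CD36 fell below that length. With any coding isoform accepted, a setting chosen after seeing the data, 0 peaks lay off a coding transcript in HL60 and 0 in HL60/MX2, in place of 2 and 5, by construction of that setting. A score of at least 100 left 10 members in HL60/MX2. Counting every overlapped gene or ignoring strand gave 6 and 12 members again, and neither a 50% overlap nor a gap of up to 100 bp changed the count of 0 shared peaks. Like genes matched on exon length alone gave 10.0 and 10.9 members, and 10 by 10 bins gave 10.7 and 12.0. No paired analysis was possible because each line had 1 library, and no replicate could be left out. Without read counts, a peak's absence cannot be told apart from low expression or low depth.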

Other observations

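Another 99 genes of myeloid cells, of the same roles but outside the list above, had a peak in 20 cases in HL60 (20.2%) and in 22 in HL60/MX2 (22.2%), where genes of like exon length and number gave 26.7 and 28.9. In both lists 7 of them held a peak (like genes 11.7), and 35 did in either (like genes 44.0). Genes of that list are named here where a peak was shared or where a line had at least 3 peaks. IL5RA, the alpha chain of the interleukin-5 receptor, had the peak that overlapped between the lines. The lowest coordinate of this peak on chromosome 3 was the same in both lists, position 3139554 in hg19. The peak was 37 bp long with a score of 229.92 in HL60 and 165 bp long with a score of 322.12 in HL60/MX2. ITGB3, the platelet and monocyte integrin beta chain, had 3 peaks, all of them in HL60/MX2. CR1, the receptor for complement C3b, had 4 peaks, again in HL60/MX2 alone. MGAM, the maltase-glucoamylase, had 2 peaks in HL60 and 5 in HL60/MX2. MEIS1, the homeobox factor of progenitors, had 3 in HL60 and 1 in HL60/MX2. Among genes with fewer peaks, which are named after their values were seen, MRC1, the macrophage mannose receptor, and FCGR2B, the inhibitory Fc receptor, had 2 peaks each in HL60 and none in HL60/MX2, while CLEC7A, the receptor for fungal glucans, had 2 in HL60/MX2 alone.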
